A study of Bos taurus with 6 samples.

Results

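The methylation of autosomal CpGs was compared between the blood monocytes and the sperm of Holstein cattle. A CpG was kept when each of the 2 monocyte and 2 sperm libraries covered it with 5 to 500 reads, and 1671292 CpGs on the 29 autosomes met this rule, out of 1713487 CpGs on all chromosomes. The 42195 others, 30551 on the X chromosome and 11644 on unplaced sequences, entered the adjustment of p-values but are not described. The series holds 6 libraries, of which the 2 fibroblast libraries were used only to read their levels at the CpGs that differed.

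The libraries were made by RRBS, in which the enzyme MspI cuts the DNA at CCGG sites and bisulfite converts unmethylated cytosines, so that the share of reads keeping a cytosine measures the methylation of a CpG. Each sperm library came from a frozen semen straw of 1 Holstein bull, and each monocyte library from the blood of 1 Holstein cow, from which monocytes were taken with magnetic beads against CD14, a surface protein of these cells. The fibroblasts were cultured from ear skin of heifers. Sperm and monocytes therefore differed in sex, and also in the number of PCR cycles, 14 for sperm and 12 for monocytes, so that cell type, sex and amplification cannot be told apart. The 4 animals were different ones, and with 2 libraries per cell type an exact permutation test cannot give a p below 0.33.

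DNA methylation in mammals occurs mainly on the cytosine of CpGs. Most CpGs of the genome are methylated, whereas the dense clusters named CpG islands, often at promoters, are mostly unmethylated. Germ cells erase the methylation of their precursors and set it anew, and genes used only in the germline are often methylated in somatic cells. Monocytes are phagocytes of the blood that arise from the bone marrow.

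Over these CpGs the summed coverage was 30268999 and 34794463 reads for sperm and 32975664 and 27110216 for monocytes, with medians of 15, 18, 17 and 14 reads per CpG. The percentage of a single CpG thus rests on few reads, and levels are given mostly over many CpGs. Relative to the autosomes, the X chromosome had a median coverage of 0.556 and 0.600 in sperm, against 0.900 and 0.889 in monocytes. The methods of the study name bulls as the source of semen and cows as that of other tissues.

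Monocytes were on average more methylated than sperm when every CpG counted equally. The mean was 50.4% and 50.0% in the sperm libraries and 54.9% and 54.6% in the monocyte libraries. Both monocyte libraries lay above both sperm libraries, at 54.8 ± 0.204% (SD, n = 2 libraries) against 50.2 ± 0.293% (SD, n = 2), a difference of 4.58 points (p = 0.33 in an exact permutation test, two-sided, the lowest p that 2 against 2 allow). The size of this difference depended on how CpGs were weighted. Weighting each CpG by its coverage gave 44.8% and 44.8% in sperm and 55.6% and 54.7% in monocytes, a difference of 10.4 points. When each of the 190949 windows of 1 kb that held a CpG counted once, the libraries overlapped, with 72.5% and 72.0% in sperm and 72.4% and 72.1% in monocytes, a difference of 0.0579 points (exact permutation test, p = 1). The mean over CpGs is weighted towards windows dense in CpGs, since windows with fewer than 5 CpGs made up 45.4% of the windows and held 12.5% of the CpGs.

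The libraries also differed in the share of CpGs that were neither low nor high. CpGs below 20% made up 46.2% and 46.6% of the CpGs in sperm and 38.7% and 38.9% in monocytes. CpGs above 80% made up 48.0% and 47.5% in sperm and 50.4% and 49.7% in monocytes. The intermediate share, between 20% and 80%, was 5.82% and 5.94% in sperm and 10.9% and 11.4% in monocytes, so that it was higher in both monocyte libraries than in both sperm libraries.

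Most CpGs had similar levels in both cell types, and those that differed often differed by nearly the whole scale. The group level of a CpG was the sum of its methylated reads over the sum of its coverage. The difference was below 10 points at 70.1% of the CpGs and exactly 0 at 31.6%, of which the largest class was the 398413 CpGs without a methylated read in any of the 4 libraries. Monocytes were higher by at least 75 points at 6.33% of the CpGs and lower by as much at 2.47%. By at least 90 points, they were higher at 3.34% and lower at 1.51%. At 13039 CpGs every read was unmethylated in both sperm libraries and methylated in both monocyte libraries, and at 7046 CpGs the reverse held.

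The spread between replicates was much smaller. The mean absolute difference per CpG was 3.79 points between the sperm libraries and 5.55 points between the monocyte libraries, against 16.8 to 17.0 points for the 4 pairs of 1 monocyte and 1 sperm library. A difference of at least 25 points was found at 2.56% of the CpGs between the sperm libraries, at 3.75% between the monocyte libraries and at 20.4% to 20.8% across cell types. The plot of differences shows that the distribution between cell types rises again towards both ends of the scale.

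**Figure D1:**
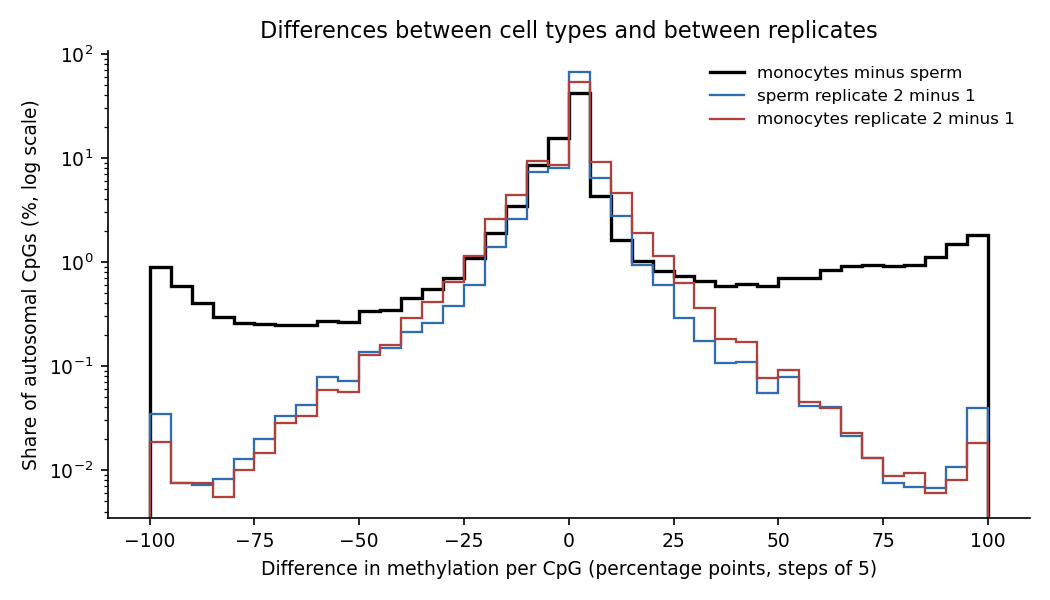
Share of the 1671292 autosomal CpGs (log scale) by difference in methylation in steps of 5 points, for monocytes minus sperm (group levels, black) and between the replicates of each cell type (blue and red); differences of exactly 0 fall in the step from 0 to 5. Differences of at least 90 points were found at 3.34% of the CpGs with monocytes higher and at 1.51% with monocytes lower.

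Differentially methylated CpGs (DMCs) were called from the summed reads with logistic regression (likelihood-ratio test), at a difference of 25 points or more and a p, adjusted after Benjamini-Hochberg, below 0.01. Monocytes were the more methylated cell type at most DMCs. Of the 1671292 CpGs tested, 307316 (18.4%) were DMCs, of which 214190 were higher in monocytes (12.8% of the CpGs tested) and 93126 were lower (5.57%). DMCs higher in monocytes are called higher DMCs below, and those lower in monocytes lower DMCs. Higher DMCs made up 69.7% of all DMCs. At a coverage of at least 20 reads in every library, where 189238 CpGs were left, they made up 80.2%. At a coverage of at most 50 reads, where 1640534 CpGs were left, they made up 67.1%, so that the share moved with coverage in both ways.

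The same rule applied to the replicates of one cell type called 4811 CpGs (0.288%) between the sperm libraries and 2727 (0.163%) between the monocyte libraries. These contrasts set 1 library against 1 other and so held fewer reads than the summed groups. Between 1 monocyte and 1 sperm library, the rule called 14.5% to 15.8% of the CpGs. Both monocyte libraries lay above, or both below, both sperm libraries at 98.6% of the DMCs, and at 34.0% of all CpGs tested. The DMCs were chosen from these same libraries by their difference, so that the first share only describes the calls. The likelihood-ratio test treats reads as independent and takes no account of the spread between animals. The quasi-likelihood test of edgeR was therefore run on the same counts, with a common dispersion and a dispersion per CpG moderated over CpGs. It called 214294 CpGs (12.8%), with 157784 higher and 56510 lower in monocytes.

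A test with libraries as replicates gave a similar split. The reads were summed over windows of 1 kb with at least 5 CpGs and tested with limma on the log2 ratio of methylated to unmethylated reads. Of 104311 autosomal windows, 21299 (20.4%) passed an adjusted p below 0.01 and a difference of at least 25 points, 14318 of them higher and 6981 lower in monocytes. The median level of the higher windows was 12.0% in sperm and 88.3% in monocytes. That of the lower windows was 97.6% in sperm and 34.1% in monocytes.

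Higher DMCs were mostly CpGs with little methylation in sperm and near full methylation in monocytes. Their mean was 14.0% and 12.8% in the sperm libraries and 85.2% and 84.2% in the monocyte libraries. Their median difference was 74.4 points, with quartiles of 55.6 and 90.5 points. Sperm was below 20% at 74.9% of them, monocytes were above 80% at 73.7%, and 50.2% met both conditions.

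Lower DMCs started from nearly full methylation in sperm and ended at more varied levels in monocytes. Their mean was 95.0% and 94.2% in the sperm libraries and 28.3% and 27.9% in the monocyte libraries. The median difference was -68.4 points, with quartiles of -91.1 and -43.1 points. Sperm was above 80% at 92.7% of the lower DMCs, whereas monocytes were below 20% at only 48.3% and between 20% and 80% at 51.7%. The rule of at least 25 points at this coverage chose these CpGs, so that their levels are a description of the calls.

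Seen from sperm, 775782 CpGs were below 20%, and monocytes were above 80% at 13.9% of them. Sperm was above 80% at 799533 CpGs, and monocytes were below 20% at 4.88% of these and intermediate at 10.6%. The few CpGs with an intermediate level in sperm were above 80% in monocytes at 71.8%, intermediate in both at 18.8% and below 20% in monocytes at 9.38%.

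Fibroblasts, the other somatic cell type of the series, took no part in the calls. Over the higher DMCs that were covered by 5 to 500 reads in all 6 libraries, 195948 in number, the mean was 67.3% and 68.1% in the fibroblast libraries, against 13.3% in sperm and 84.6% in monocytes. Over 85317 lower DMCs, it was 48.2% and 48.3% in fibroblasts, against 94.5% in sperm and 28.3% in monocytes. Fibroblasts thus lay between sperm and monocytes on average at both kinds of DMC, although the distance between the last 2 was fixed by the choice of the CpGs. They were above 80% at 45.8% of the higher DMCs and below 20% at 29.9% of the lower DMCs. At the 1260795 CpGs that were not called, the fibroblast means were 42.7% and 43.1%, with sperm at 51.8% and monocytes at 50.8%.

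All 29 autosomes held DMCs of both directions, and higher DMCs were the majority on each of them, though on chromosome 11 they made up 49.95% when coverage was limited to at most 50 reads. The share of CpGs called ranged from 14.3% on chromosome 26 to 33.0% on chromosome 27, with a median of 18.2%. Chromosomes 27, 8 and 18 had the highest shares, with 33.0%, 24.5% and 22.3%. Chromosomes 26, 20 and 5 had the lowest, with 14.3%, 14.8% and 15.2%. Higher DMCs made up 88.2%, 85.0% and 82.5% of the DMCs on chromosomes 27, 8 and 4, and 52.7%, 57.1% and 57.6% on chromosomes 11, 22 and 17.

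The average over CpGs differed most between the cell types on chromosome 27. The sperm libraries were at 46.7% and 46.5% on chromosome 27 and the monocyte libraries at 64.8% and 64.2%, a difference of 17.9 points. On chromosome 11, it was 57.2% and 57.0% in sperm and 56.6% and 56.3% in monocytes, a difference of -0.667 points. Chromosome 11 was the only autosome on which both monocyte libraries lay below both sperm libraries, and on the 28 others both lay above. The median difference over the 29 autosomes was 4.51 points.

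**Figure D2:**
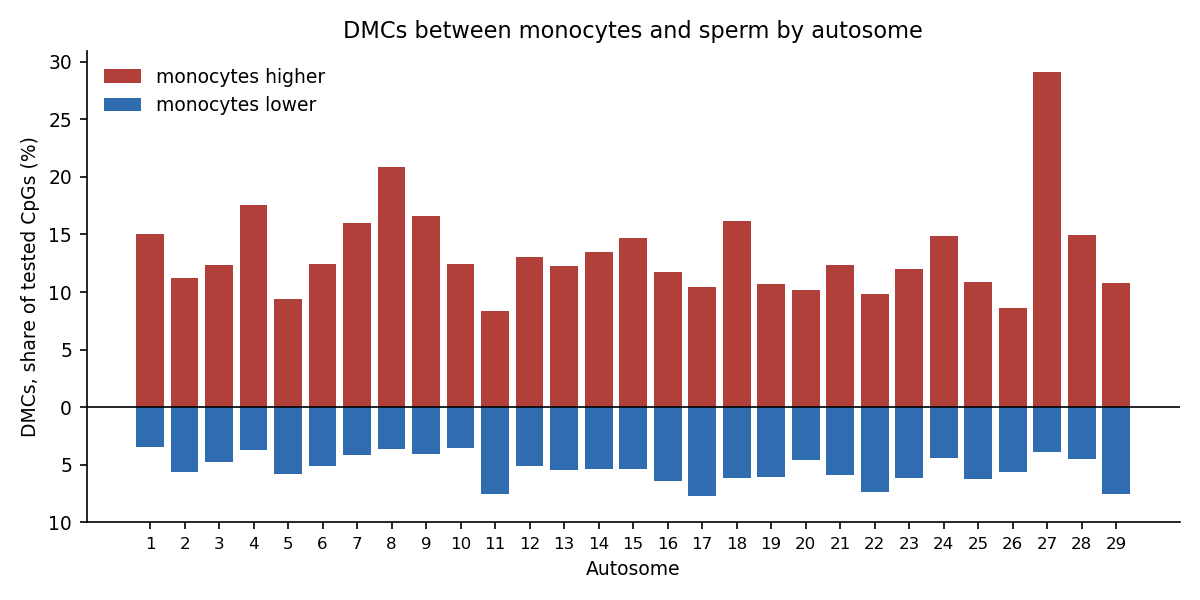
Share of tested CpGs that were higher DMCs (bars above 0) and lower DMCs (bars below 0) on each of the 29 autosomes, from all 4 libraries together, without an error bar. Chromosome 27 stands highest with 29.1% higher DMCs, and the share of lower DMCs runs from 3.45% on chromosome 1 to 7.71% on chromosome 17.

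Part of the calls of chromosomes 27, 8 and 18 came from few windows of 1 Mb, picked after their values were seen. Over the 29 autosomes, the 3 windows with the most higher DMCs held from 16.7% (chromosome 13) to 45.1% (chromosome 27) of the higher DMCs of an autosome. They held 44.7% on chromosome 14 and 41.1% on chromosome 28, so that a high share was not particular to the chromosomes described. The tested CpGs in these windows differed, with 9.37% of those on chromosome 13, 28.0% on chromosome 14 and 12.4% on chromosome 28. On chromosome 27, these 3 windows, which start at 28, 37 and 5 Mb, held 45.1% of its higher DMCs and 20.8% of its tested CpGs, and 24.7% of the CpGs outside them were called. The window at 28 Mb alone held 2178 higher DMCs among 2832 CpGs, with 29.4% and 29.3% methylation in sperm and 78.8% and 77.6% in monocytes. On chromosome 8, the windows starting at 74, 56 and 110 Mb held 37.8% of the higher DMCs and 9.60% of the CpGs, and 18.4% of the other CpGs were called. On chromosome 18, the windows starting at 62, 64 and 65 Mb, near its end, held 24.5% of the higher DMCs and 11.5% of the CpGs.

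CpGs of high coverage were more common on the first 2 of these chromosomes. A coverage above 50 reads in at least 1 library was found at 9.14% of the CpGs on chromosome 27, 7.63% on chromosome 8 and 0.715% on chromosome 18. Among the remaining CpGs, chromosome 27 still had the highest share of calls of all autosomes, with 27.3%, whereas chromosome 8 fell to 19.3% and chromosome 18 stayed at 22.1%.

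Lower DMCs were more frequent on autosomes dense in tested CpGs. Over the 29 autosomes, the number of tested CpGs per Mb and the share of lower DMCs had a Spearman's rho of 0.815 (Pearson's r 0.622), and the density and the share of higher DMCs a rho of -0.564 (r -0.311). These are descriptions, since the autosomes were measured in the same libraries and the shares depend on the same CpGs. The mean level in sperm, which bounds these shares, also differed between autosomes, from 35.6% to 61.2%.

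Lower DMCs were also more frequent towards the end of the autosomes. In the last 5 Mb before the last tested CpG, 7.75% of the CpGs were lower DMCs, against 4.83% between the first and the last 5 Mb, and the share was above that between the ends on 25 of the 29 autosomes. Sperm was also more methylated there, at 69.6% against 42.8% between the ends, so that more CpGs could be lower in monocytes. Whether lower DMCs were more frequent at equal sperm levels was not tested. The share of higher DMCs in the last 5 Mb was 12.4%, close to the 12.6% between the ends, and above it on 14 autosomes. In the first 5 Mb, 16.1% were higher DMCs, above the share between the ends on 22 autosomes. Lower DMCs made up 4.81% there, but were above the share between the ends on only 8 autosomes, with a median over autosomes of 2.80% against 4.77%.

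Among 1571 windows of 1 Mb with at least 200 tested CpGs, a median of 14.9% of the CpGs was called, and higher DMCs outnumbered lower ones in 1247. The 3 windows with the highest share of higher DMCs start at 100 Mb on chromosome 2, at 56 Mb on chromosome 8 and at the beginning of chromosome 19, with 91.9%, 91.5% and 90.7% of their CpGs called, all of them higher in monocytes. Their levels were alike, from 18.5% to 20.2% in sperm and from 80.4% to 81.9% in monocytes, and their median coverage was 42.5, 30.5 and 26 reads. The 3 windows with the highest share of lower DMCs start at 73 Mb on chromosome 8, at 79 Mb on chromosome 9 and at 11 Mb on chromosome 18, with 23.0%, 22.1% and 18.6%. In the last of these, sperm was at 74.0% and 73.8% and monocytes at 63.2% and 63.2% over 4509 CpGs.

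The direction of the DMCs varied with the local density of CpGs, counted as other tested CpGs within 100 bp. Among CpGs with no such neighbour, 7.07% were higher and 8.70% were lower DMCs. With 6 to 10 neighbours the shares were 15.2% and 5.38%, and with 16 or more they were 9.79% and 0.270%. Lower DMCs thus became rarer as density rose above 2 neighbours, whereas higher DMCs were most frequent at 6 to 10 neighbours. The level varied with density too. Isolated CpGs were at 86.2% and 85.6% in sperm and 82.0% and 81.6% in monocytes. CpGs with 16 or more neighbours were at 4.57% and 4.56% in sperm and 12.6% and 12.4% in monocytes. A CpG can be a lower DMC only where sperm is methylated, and a higher DMC only where sperm is not fully methylated. The shares are thus bound by the sperm level at each density, and shares at equal sperm levels were not tested.

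Coverage separated a small set of CpGs with a pattern of its own. CpGs with a mean coverage of 50 reads or more over the 4 libraries numbered 21399 (1.28%), and 90.7% of them were called, of which 99.8% were higher DMCs. Their mean was 23.0% and 20.8% in sperm and 79.4% and 78.6% in monocytes, a difference of 57.1 points. They held 9.04% of all higher DMCs. In the 3 classes of lower coverage, from 5 to 49 reads, 14.5% to 18.7% of the CpGs were called, and the differences of the averages were 2.87, 3.38 and 5.17 points. Whether these CpGs lie in repeated sequences was not examined here, since no repeats of UMD3.1 were used.

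**Figure D3:**
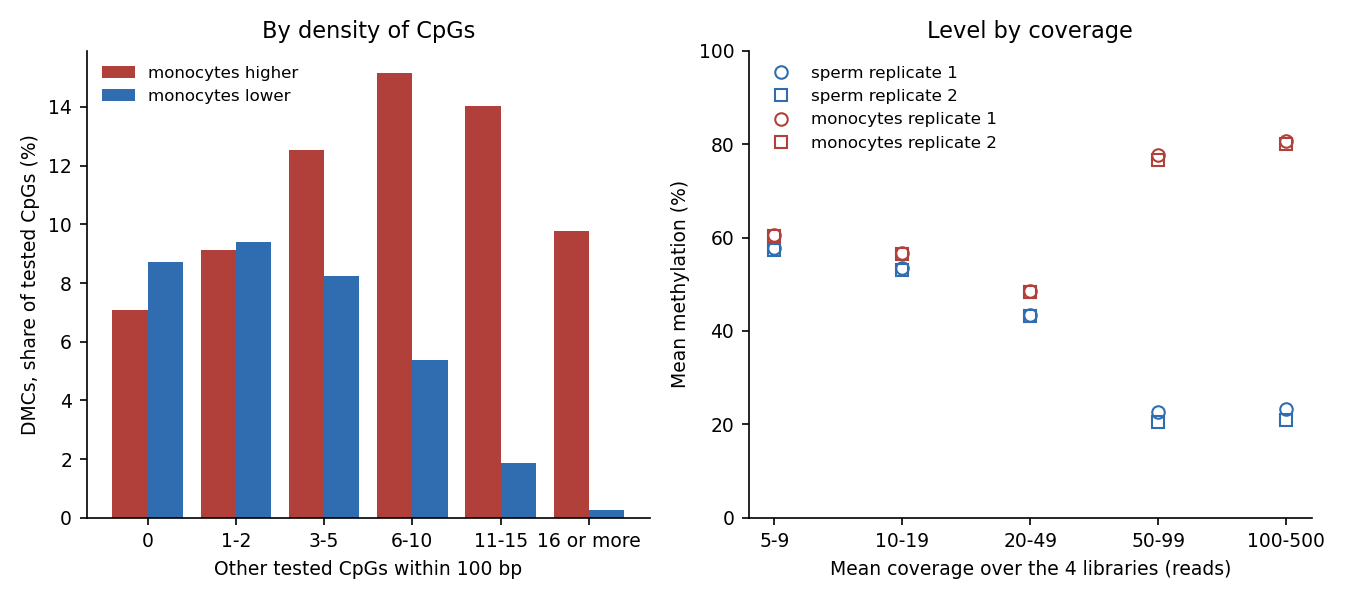
Left, share of tested CpGs that were higher (red) and lower (blue) DMCs by the number of other tested CpGs within 100 bp; right, mean methylation of each library (circles, replicate 1; squares, replicate 2) by mean coverage of the CpG over the 4 libraries. Lower DMCs fall from 8.70% to 0.270% between isolated and densest CpGs, and sperm and monocytes lie 55.5 and 58.2 points apart in the 2 classes of highest coverage.

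Neighbouring CpGs were mostly called together and in the same direction. At a distance of 2 to 9 bp, where neighbours are usually on the same reads, 88.8% of the CpGs next to a DMC were DMCs, and 99.9% of the pairs of DMCs had the same direction. From 75 to under 300 bp, close to the length of the fragments, 71.9% were DMCs, and from 300 to under 1000 bp, 54.4%. Beyond 20000 bp it was 17.8%, against 18.4% of all CpGs, and 68.2% of the pairs of DMCs had the same direction. As 69.7% of all DMCs were higher, pairs can share a direction without clustering. The share expected from this split was not computed.

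The CpG next to a higher DMC was also higher in 91.2% of the cases at 2 to 9 bp, in 65.5% from 300 to under 1000 bp and in 34.9% from 1000 to under 5000 bp. For lower DMCs, the shares were 79.1%, 32.3% and 16.8%. From 5000 to under 20000 bp, they were 13.7% for higher and 11.4% for lower DMCs, and beyond 20000 bp 14.9% and 6.96%, against 12.8% and 5.57% over all CpGs. The shares over all CpGs are no matched background at these distances. Among CpGs with no other tested CpG within 100 bp, 7.07% were higher and 8.70% were lower DMCs. Higher and lower DMCs are therefore not ranked here.

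**Figure D4:**
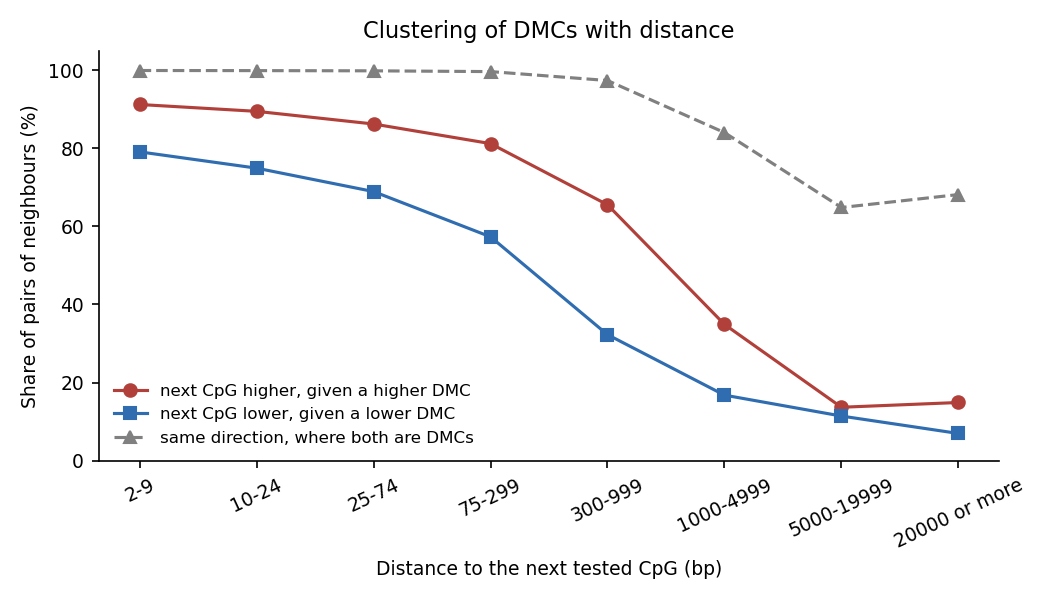
Share of pairs of neighbouring tested CpGs by distance: the next CpG being a higher DMC where one is a higher DMC (red), being a lower DMC where one is a lower DMC (blue), and having the same direction where both are DMCs (grey). The first 2 curves start at 91.2% and 79.1% and end at 14.9% and 6.96%.

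Runs of at least 5 DMCs of one direction, with neighbours at most 1000 bp apart and no DMC of the other direction between them, are called regions. Higher DMCs formed 11171 regions that held 90.2% of them, and 2.79% of the higher DMCs stood alone. Lower DMCs formed 5761 regions that held 63.1% of them, and 12.6% stood alone. A higher region had a median of 11 DMCs and a median length of 341 bp, and a lower region 8 DMCs and 264 bp. Regions of 100 or more DMCs numbered 56 among the higher and 3 among the lower ones. Lower DMCs were fewer, and their share of the tested CpGs was lowest where these were densest. Values for CpGs matched in number and density were not computed. The shares and sizes above therefore do not show which direction was more clustered. Of the pairs of neighbouring regions on an autosome, 31.4% had opposite directions. The share expected from the unequal numbers of higher and lower regions was not computed. This value therefore does not tell how far the directions were mixed.

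Higher regions were split at a median coverage of 50 reads, a chosen limit. In the 10470 with a median coverage of at most 50 reads, the median level was 6.67% in sperm and 88.8% in monocytes, and sperm was below 10% in 56.6%. In the 701 with a higher coverage, it was 21.2% in sperm and 83.1% in monocytes, and sperm was below 10% in 6.42%. The 2 sets overlapped, with quartiles of the sperm level of 1.63% and 20.3% at lower and 18.2% and 24.7% at higher coverage. Sperm thus kept some methylation in most of the regions of high coverage. Among lower regions, 5759 of 5761 had a coverage of at most 50 reads, with median levels of 97.4% in sperm and 24.7% in monocytes. Monocytes were below 20% in 43.8% of these and between 20% and 80% in 54.8%.

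Of the 10 higher regions with the most DMCs, 6 had a median coverage of 54 to 96.5 reads. The largest, with 330 DMCs among 350 CpGs, was at chr13:48991558-49021270, with 22.1% and 19.6% in the sperm libraries and 73.3% and 74.3% in the monocyte libraries. The second, with 297 DMCs, was at chr3:1027952-1049491, with 21.2% and 17.6% in sperm and 75.5% and 76.4% in monocytes. The third, with 270 DMCs, was at chr4:41474038-41497568, with 22.6% and 18.6% in sperm and 73.3% and 72.4% in monocytes. These 3 regions had nearly the same levels on 3 chromosomes. The other 3 of high coverage, at chr29:19399061-19416464, chr29:19423332-19436708 and chr27:37630859-37641652, had group means between 18.7% and 21.0% in sperm and between 74.7% and 81.5% in monocytes. In the flanks of 5 kb of these 5 regions, excluding that on chromosome 13, which had no tested CpG there, the group means were 11.5% to 21.7% in sperm and 42.4% to 83.6% in monocytes, so that the difference ran on beyond their ends.

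The other 4 of the 10 had a coverage near the typical one, and 3 of them were near the end of chromosome 18. At chr18:63686102-63692473, 252 of 255 CpGs were DMCs, with 10.8% and 10.3% in sperm and 93.3% and 92.4% in monocytes. At chr18:62377846-62380903, all 195 CpGs were DMCs, with 1.53% and 2.51% in sperm and 97.3% and 97.3% in monocytes, and fibroblasts were at 95.0% and 94.4%. At chr18:64014139-64015879, all 146 CpGs were DMCs, with 18.0% and 21.7% in sperm and 98.3% and 97.3% in monocytes. These were changes from low to near full methylation over whole regions. Their flanks of 5 kb differed. The first had 73.2% in sperm and 82.1% in monocytes over 90 CpGs, the next 41.7% and 95.0% over 44 CpGs, and the last 97.3% and 98.2% over 8 CpGs.

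The fourth region, at chr12:88663836-88666926, was methylated in monocytes, while most CpGs tested in its flanks had little methylation in either cell type. Of its 157 CpGs, 156 were DMCs, with 8.64% and 14.6% in sperm and 96.9% and 96.1% in monocytes. In its flanks, 74 CpGs were at 3.81% in sperm and 2.05% in monocytes. The CpG at -2934 bp from the first CpG of the region was a lower DMC, with 85.7% and 56.25% in sperm and 0% in both monocyte libraries. The nearest CpG tested after the region, at 4232 bp from its first CpG, was at 0% in each library. Fibroblasts were at 89.3% and 87.1% in the region. The fifth region by number of DMCs at a coverage of at most 50 reads was at chr11:106338375-106341373, where 142 of 226 CpGs were DMCs. Sperm was at 1.26% and 1.42% there and the monocyte libraries at 45.3% and 33.7%, so that the monocyte replicates differed more than in the regions above.

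Among the lower regions, the 10 with the most DMCs had a median coverage of 14 to 19 reads. At chr17:74834556-74840926, 165 of 187 CpGs were DMCs, with 95.9% and 96.3% in the sperm libraries and 19.8% and 19.1% in the monocyte libraries. At chr16:70932760-70942288, 131 of 146 CpGs were DMCs, with 95.4% and 94.6% in sperm and 14.6% and 16.4% in monocytes. At chr25:41307803-41312328, 102 of 103 CpGs were DMCs, with 96.6% and 96.5% in sperm and 7.41% and 7.89% in monocytes. All 3 were almost fully methylated in sperm and mostly unmethylated in monocytes. Fibroblasts were at 41.9% and 45.4%, at 60.7% and 65.4%, and at 25.3% and 32.0% in them.

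The other 7 lower regions were on chromosomes 29, 22, 25, 16, 25, 14 and 21. Their group means ranged from 77.8% to 98.2% in sperm and from 1.31% to 40.0% in monocytes. The lowest monocyte level was found at chr25:1193917-1196590, where all 75 CpGs were DMCs, with 80.0% and 75.7% in sperm and 1.45% and 1.17% in monocytes. Fibroblasts were at 8.05% and 6.13% there. At chr16:51161243-51164473, the monocyte libraries were at 42.4% and 33.8%, the widest gap between monocyte replicates in these 10 regions. At chr22:56782554-56787786, the CpGs of the flanks were also lower in monocytes, with 32.7% against 92.2% in sperm, so that the lower level was not confined to the region.

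The 4 loci that the study had chosen for low methylation in sperm, partly from these libraries, were read in the windows it drew. Their direction is therefore no independent evidence. DDX4 encodes an RNA helicase of germ cells, and SYCP3 a protein of the synaptonemal complex that joins chromosomes in meiosis. At DDX4 (chr20:23444293-23445093), all 21 CpGs were higher DMCs, with 0% and 0.529% in sperm and 96.6% and 96.8% in monocytes. At SYCP3 (chr5:65888681-65888983), all 19 CpGs were higher DMCs, with 0.346% and 0.301% in sperm and 90.3% and 93.6% in monocytes. In both, no CpG of a monocyte library was below 68.0% and none of a sperm library above 11.1%. Fibroblasts were at 87.1% and 87.2% at DDX4 and at 82.2% and 74.9% at SYCP3, over 18 CpGs each.

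LSM4 encodes a subunit of a complex that binds U6 small nuclear RNA, and only 5 of its 36 CpGs (chr7:4816828-4818889) were DMCs, all higher in monocytes. They lay together at chr7:4816828-4817023, with at least 75.0% in each monocyte library and at most 22.2% in each sperm library. Over all 36 CpGs, the means were 1.26% and 0.772% in sperm and 12.8% and 13.9% in monocytes. With at least 10 reads, the difference over the CpGs left was -0.416 points. Outside the 5 DMCs, every CpG was at 0% in both monocyte libraries, so that the CpGs left can hold none of these DMCs. The study chose LSM4 from an array of immunoprecipitated methylated DNA. The CpGs it pyrosequenced there were lower in sperm than in liver and fibroblasts, and RRBS did not cover them. The 36 CpGs read here are therefore no test of that result. BTSAT4 is a satellite repeat, and its 3 CpGs (chr9:45022583-45022619) were higher DMCs, with 13.6% and 13.7% in sperm and 83.0% and 77.6% in monocytes. A satellite is present in many copies, so that the assignment of these reads to one place is uncertain.

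**Figure D5:**
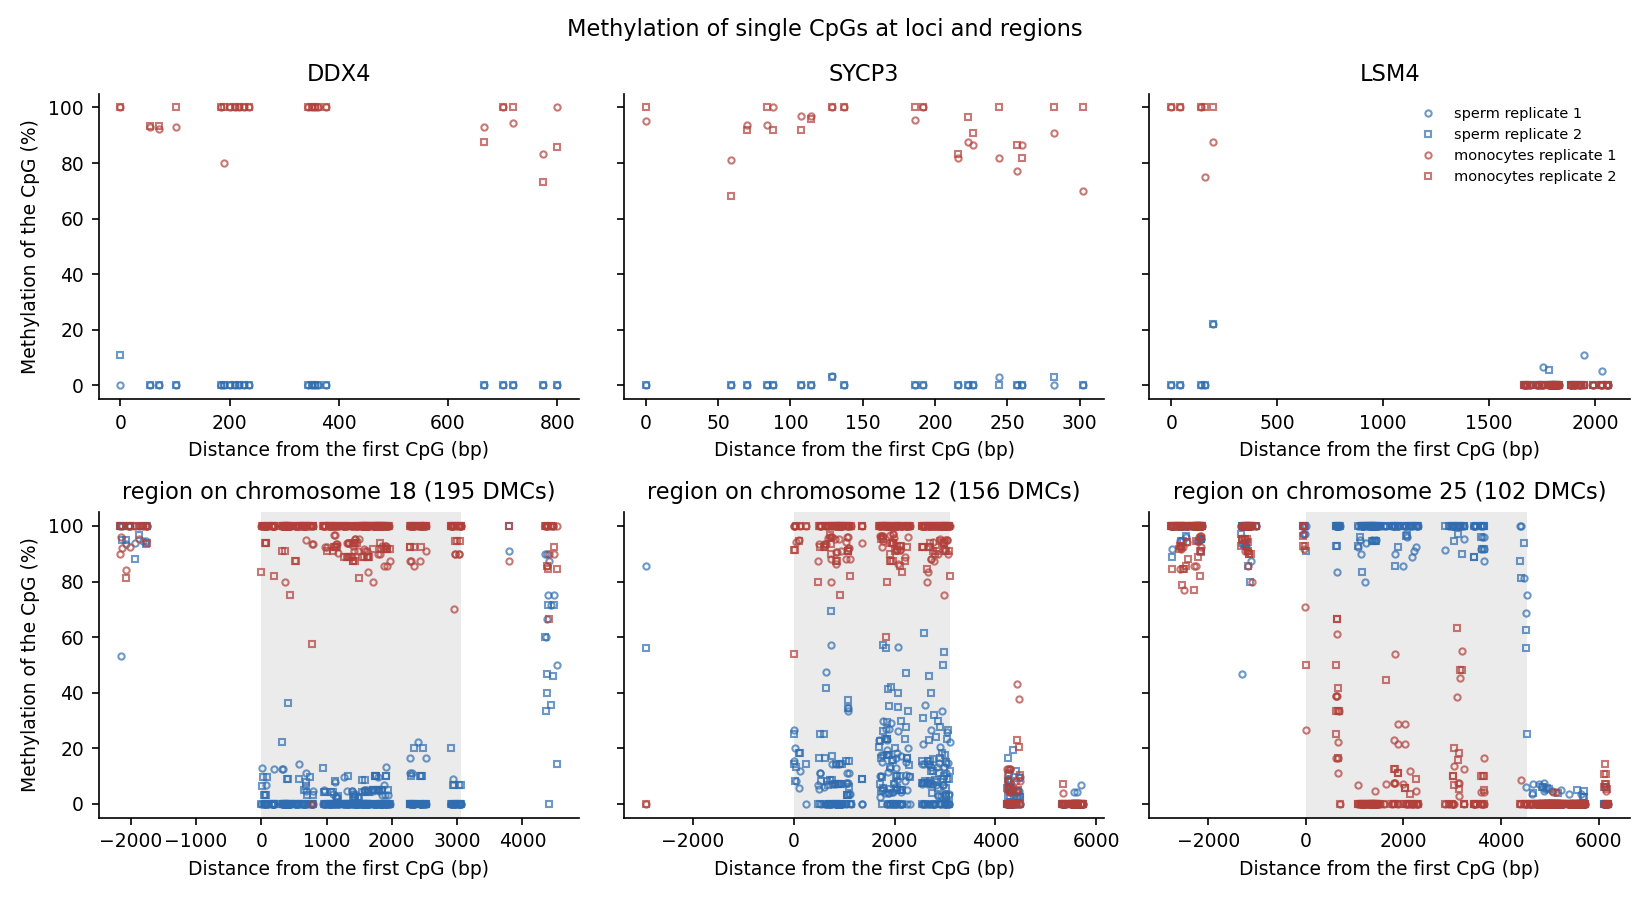
Methylation of single CpGs in each sperm (blue) and monocyte (red) library (circles, replicate 1; squares, replicate 2) by distance from the first CpG, at DDX4, SYCP3 and LSM4 and at regions of 195, 156 and 102 DMCs on chromosomes 18, 12 and 25, shaded, with their flanks. Both libraries of one cell type lie above both of the other at all CpGs of DDX4 and SYCP3, at 194 of 195, 157 of 157 and 103 of 103 CpGs of the regions, and at 5 of 36 CpGs of LSM4.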

How the data were processed

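RRBS was measured in 2 sperm and 2 monocyte libraries, and 2 fibroblast libraries were read for their levels. Per the labels, genomic MspI fragments of 40 to 290 bp were sequenced as 75 bp pairs, and the processing notes name Trim Galore 0.3.7, Bismark 0.14.3, Bowtie and methylKit, with the UMD3.1 genome. For each CpG, the deposited tables give the coverage as a count of uniquely mapped reads and the methylation as a percent of them, both strands as 1 position, without normalization. Methylated reads were recovered as coverage times percent, rounded. PCR duplicates could not be told apart in these counts, so that reads are not all independent molecules.

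DMCs were adjusted over all 1713487 CpGs of the 4 libraries and then counted on autosomes. Windows of 1 kb with at least 5 CpGs were tested with limma 3.58.1 (trend) on log2((methylated + 1)/(unmethylated + 1)). The quasi-likelihood test of edgeR 4.0.16 was run on methylated and unmethylated counts, with a common dispersion of 0.0799 estimated from 50000 CpGs. R was version 4.3.3 and Python version 3.11.15 (packages scipy 1.17.1, numpy 2.4.6, numba 0.67.0, pandas 2.3.3). The scripts were tested on simulated data. CpGs share reads and fragments, so that no p is given over CpGs other than per CpG.

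Regions, chromosomes and loci were chosen with earlier results of these data known. Named were the 10 regions with the most DMCs in each direction and the 5 with the most at a median coverage of at most 50 reads, the 3 highest and 3 lowest chromosomes, the 3 windows of 1 Mb with the highest share in each direction, and the loci of the study. Coordinates are 1-based on UMD3.1. No annotation of that build was used, so that genes, CpG islands and repeats at the regions were not analysed here.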

Additional observations from a re-analysis of the deposited data

Results flagged for a closer look

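Autosomal CpGs that exceeded 500 reads in at least 1 of the 4 libraries were left out of the main comparison and showed the same direction. There were 10311 of them, with 23.8% and 21.0% methylation in the sperm libraries and 81.9% and 81.4% in the monocyte libraries. The difference was 59.3 points, against 4.58 points over the CpGs of the comparison, and it was larger than the spread between replicates, 1.98 points in sperm and 0.347 points in monocytes (SD, n = 2 libraries). The main comparison left these CpGs out, and they entered only the alternative with no maximum of coverage, which gave 224094 higher and 93246 lower DMCs. Groups of 2 libraries were too small to look for single libraries far from the others.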

How the results depend on the processing

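In each alternative, higher DMCs, windows and regions outnumbered lower ones, and 76 of the 90 values for counts and averages kept their direction and, for counts, stayed within 1.5 times the reported one. The averages all had monocytes higher, but the difference was 0.0579 points over 1-kb windows, 3.69 points at a maximum of 50 reads, 5.21 at a minimum of 10, 5.28 over each library's own CpGs, 9.31 at a minimum of 20 and 10.4 weighted by coverage. With at least 10 reads there were 138621 higher and 56178 lower DMCs, 4123 lower windows and 3478 lower regions, and with at least 20 reads 37716 higher and 9307 lower DMCs, fewer CpGs being tested. At these minimums 19.4% and 24.8% of the CpGs were called. The edgeR test called 56510 lower DMCs. Windows with at least 10 CpGs numbered 8275 higher and 2803 lower, windows with at least 3 CpGs 10592 lower, and windows of 5 kb 8729 higher. Regions of at least 2 DMCs numbered 14134 lower, and those of at least 10 DMCs 6608 higher and 2018 lower. At a minimum of 10 reads the difference at LSM4 turned to -0.416 points, over CpGs that no longer held its 5 DMCs. Why these DMCs had fewer reads was not tested. For the named regions and loci, 34 of the 50 values from a minimum of 10 reads or from summed reads moved by less than the spread between replicates. Chromosome 27 had the highest and chromosome 26 the lowest share called in each of the 6 alternatives tried for chromosomes, at 27.2% to 35.6% and 12.2% to 15.1%. At a maximum of 50 reads, chromosomes 27, 18 and 15 had the highest shares, and chromosome 8 was not among them. Of 60 values for the shares called on 10 named chromosomes, 58 left the binomial interval of the reported share, which treats CpGs as independent. Without one library, there were 193482 to 203545 higher and 77231 to 87567 lower DMCs, 12557 to 14371 higher and 5241 to 7035 lower windows, 10126 to 10671 higher and 4948 to 5373 lower regions, and an average difference of 4.37 to 4.78 points. The lone library of a cell type was assumed to vary like the other one in the windows.

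The replicate numbers are shared by different animals, and the deviations of same-numbered libraries had a correlation of 0.00401 over CpGs. With the replicate block, the Cochran-Mantel-Haenszel test gave 197830 higher and 78550 lower DMCs, and limma 14479 higher and 7085 lower windows. Merging of strands was not run, since the files list 1 position per CpG. At a median of 14 to 18 reads per CpG, small differences at single CpGs cannot be detected, and 24084 CpGs with a difference of at least 25 points were not called. Having 2 animals per cell type limits what the p-values say of other animals.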
